A study of Marchantia polymorpha with 18 samples.

Results

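Crushed thallus lobes of the deletion mutant Mpglr-9 were compared with crushed lobes of wild-type Marchantia polymorpha, a liverwort whose body is a flat green thallus. The comparison rested on 6 RNA sequencing libraries of the 18 in the study, 3 from the mutant and 3 from the wild type, taken by their column names in the deposited table of read counts. Mpglr-9 carries a CRISPR-Cas deletion in MpGLR, a glutamate receptor-like gene, and is the sole mutant allele in the study; the labels do not say how many independent lines stand behind it. Plants were used after 28 days on soil. Wounding meant crushing 2 lobes of a plant with serrated forceps, and the damaged lobes were taken after 4 h. Each library is described as an independent biological replicate and pooled tissue of 9 plants. The study also held untouched lobes of the wounded plants (systemic) and thallus of plants that were not wounded (intact), each in Mpglr-9 and in wild type with 3 libraries, which served here as further measurements of the same genotypes.

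Glutamate receptor-like proteins of plants are related to the ion channels that open on binding glutamate in animal nerve cells. In Arabidopsis some of them are needed for the electrical and calcium signals that spread from a wound and lead to jasmonate responses in distant leaves. In Marchantia the hormone bound by the receptor MpCOI1 is an oxylipin relative of jasmonate, made from fatty acids by lipoxygenases and later enzymes, and MpJAZ is the repressor that this receptor removes. The comparison of the genotypes in damaged lobes addresses whether MpGLR contributes to the state of the crushed tissue. The gene names used pair no identifier with MpGLR, which was not analysed here, and the genotype labels were thus not checked by its transcript.

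The damaged libraries held 21678546 to 22632143 counts in Mpglr-9 and 17312755 to 24209193 in wild type, and 3 counts, the upper limit that a count of 0 allows, stood for 0.135 to 0.140 CPM in Mpglr-9 and 0.124 to 0.178 CPM in wild type. CPM are counts relative to the size of the library, after scaling between libraries. These limits cover counting error only. Libraries with the same replicate number resembled each other across the genotypes, those numbered 2 only weakly. The deviations of a library from the mean of its group correlated across genes at 0.25, 0.12 and 0.39 between the mutant and wild-type libraries numbered 1, 2 and 3. Between libraries of different numbers these correlations ran from -0.33 to 0.09, the highest for mutant 1 with wild type 2. On the first principal component of the 6 damaged libraries, with 37.6% of the variance, the libraries numbered 3 lay at 23.3 in the mutant and 23.3 in the wild type. Those numbered 1 lay at -12.3 and -29.7. Neither this component nor the second (23.2%) separated the genotypes without overlap. On the second, each mutant library lay below the wild-type library of its number (-19.3, -16.6 and 5.37 against 22.3, -3.45 and 11.7). As same-numbered libraries resembled each other, the replicate number was also used as a block. The block compares each mutant library with the wild-type library of the same number. The labels do not say what a number marks. As a check on the tissue, MpRBCS, the small subunit of the carbon-fixing enzyme Rubisco, stood at 56.8, 61.0 and 77.0 CPM in damaged Mpglr-9 and at 52.4, 63.6 and 67.3 CPM in damaged wild type.

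Few transcripts separated the genotypes in damaged lobes. Of 13450 tested genes 4 were higher in Mpglr-9 (0.0297%) and 0 were lower, at an adjusted p under 0.05 in edgeR's quasi-likelihood test with Benjamini-Hochberg adjustment. At an unadjusted p under 0.05 there were 424 higher and 357 lower genes, 5.81% of those tested. With the replicate block within each condition there were 743 higher and 634 lower genes at this unadjusted p, 10.2% of those tested. Without the block, DESeq2 called 18 higher and 10 lower genes, and limma-voom called 6 higher and 0 lower genes. The 4 genes called in edgeR without the block were Mp7g01940, Mp3g21250, MpVg00700 and Mp4g19430. None of them has a symbol or a stated role in the names used. The median absolute log2 fold change over all tested genes was 0.08, and 157 genes reached an absolute value of 1. Among the 12180 genes with a mean of at least 1 CPM over all libraries, 94.5% had a 95% interval of the difference that lay within 1 of 0 on the log2 scale, so that a 2-fold difference was outside the interval for them.

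**Figure D1:**
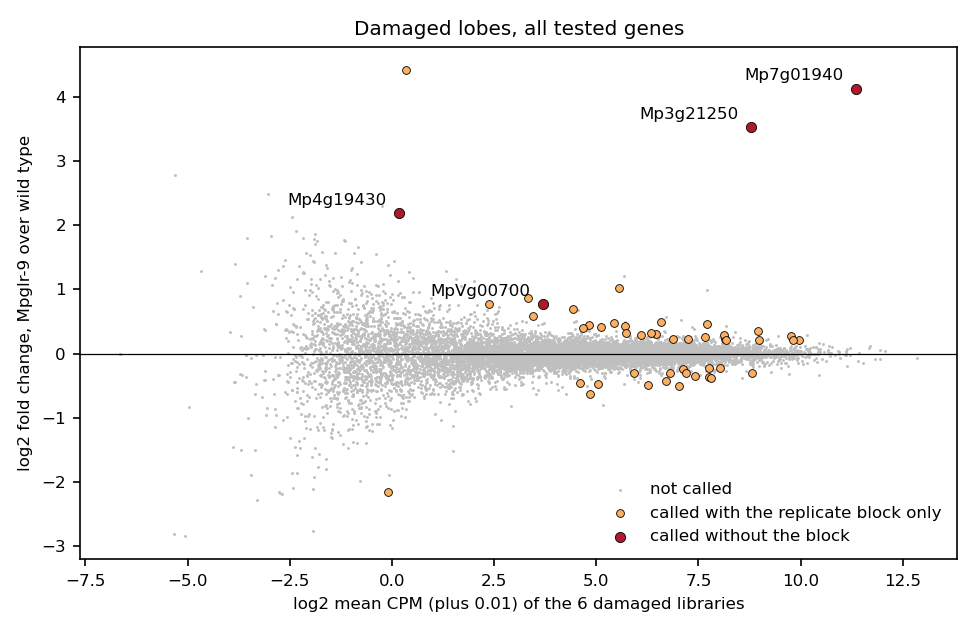
Log2 fold change of Mpglr-9 over wild type in damaged lobes (vertical) against log2 mean CPM of the 6 damaged libraries (horizontal), 1 point per tested gene. Red points are the 4 genes called without the block, orange points the genes called only with the replicate block within each condition; Mp7g01940 and Mp3g21250 stand alone at high level and high fold change.

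Mp7g01940, on chromosome 7, had 4749, 4754 and 5279.8 CPM in damaged Mpglr-9, against 284, 269 and 291 CPM in damaged wild type. The groups were far apart, and within each genotype the libraries lay close together. The difference was 4.13 ± 0.06 on the log2 scale (SE, n = 3 a genotype, adjusted p = 5.31e-18), a 17.5-fold higher level. In intact thallus the gene averaged 6098 ± 241 CPM in Mpglr-9 and 313 ± 19.8 CPM in wild type (SD, n = 3 each), and in systemic lobes 6189 ± 105 CPM in Mpglr-9 and 305 ± 0.799 CPM in wild type. The gene was thus called in all 3 tissues, with log2 fold changes of 4.29 ± 0.06 in intact and 4.34 ± 0.07 in systemic tissue (SE, adjusted p = 3.12e-18 and 2.60e-18). In these tissues 0.0223% and 0.052% of all tested genes were called higher. The difference in damaged lobes minus that in intact plants was -0.15 ± 0.08 (SE, adjusted p = 1).

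Mp3g21250, on chromosome 3, had 810, 774 and 872 CPM in damaged Mpglr-9, against 68.5, 72.9 and 70.7 CPM in damaged wild type. Here too the groups did not overlap, and the log2 fold change was 3.53 ± 0.12 (SE, n = 3 a genotype, adjusted p = 1.76e-11). In intact thallus it averaged 1084 ± 49.5 CPM in Mpglr-9 and 68.5 ± 15.99 CPM in wild type (SD, n = 3 each), or 3.98 ± 0.12 in log2 fold change (SE, adjusted p = 3.32e-12). Systemic lobes gave 1133 ± 3.04 CPM in Mpglr-9 and 65.3 ± 5.67 CPM in wild type, or 4.12 ± 0.13 in log2 fold change (SE, adjusted p = 2.27e-12). The difference was smaller in damaged lobes than in intact plants by 0.45 ± 0.16 on the log2 scale (SE, unadjusted p = 0.0117), which did not pass over all genes (adjusted p = 1 with edgeR).

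The loci next to these genes were not called. By order of locus number, the tested neighbours of Mp7g01940 were Mp7g01910 at a log2 fold change of 0.00 ± 0.10, Mp7g01950 at -0.29 ± 0.32, Mp7g01960 at -0.02 ± 0.05 and Mp7g01970 at -0.47 ± 0.62 (SE, n = 3 a genotype, adjusted p from 0.964 to 1). Those of Mp3g21250 were Mp3g21220 at 0.09 ± 0.05, Mp3g21260 at 0.00 ± 0.38 and Mp3g21280 at 0.29 ± 0.17 (adjusted p from 0.853 to 1).

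MpVg00700 lies on the V chromosome, the sex chromosome of male plants. It had 16.5, 15.03 and 17.6 CPM in damaged Mpglr-9, against 9.18, 10.4 and 9.11 CPM in damaged wild type, so that the lowest mutant library was above the highest wild-type one. The log2 fold change was 0.77 ± 0.10 (SE, n = 3 a genotype, adjusted p = 0.00209), and the intact and systemic values of 0.75 ± 0.10 and 0.82 ± 0.10 were also called (adjusted p = 0.00244 and 0.000968). With the 6 damaged libraries fitted alone and no block the gene was not called (adjusted p = 0.271), nor without both libraries numbered 3 (adjusted p = 0.0569).

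Its neighbour MpVg00690 had 6.17, 6.55 and 6.92 CPM in damaged Mpglr-9, against 3.67, 4.00 and 3.87 CPM in damaged wild type, a log2 fold change of 0.76 ± 0.16 (SE, n = 3 a genotype). It missed the threshold without the block (adjusted p = 0.168) and passed with it (adjusted p = 0.0308). On the other side, MpVg00710 stood at -0.10 ± 0.06 (SE, adjusted p = 0.885). Of 154 V chromosome identifiers 40 were tested, and in 6 of them all mutant libraries lay above all wild-type libraries, in 2 below. Over all tested genes 4.66% lay above and 3.48% below in this way. MpVg00610, one of those below, averaged 3.14 ± 0.391 CPM in damaged Mpglr-9 and 5.10 ± 0.568 CPM in damaged wild type (SD, n = 3 each, adjusted p = 0.392). The summed level of the V chromosome genes ran from 3162 to 3963 CPM in damaged Mpglr-9 and from 3491 to 4326 CPM in damaged wild type, and the median log2 fold change of the list was 0.00, as over all tested genes. This sum leaned on MpVg01240, the most abundant of them, which averaged 1245 ± 438 CPM in damaged Mpglr-9 and 1570 ± 428 CPM in damaged wild type (SD).

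Mp4g19430, on chromosome 4, is a gene of few reads. It had 40, 38 and 42 counts (1.83, 1.70 and 1.96 CPM) in damaged Mpglr-9, against 9, 11 and 5 counts (0.533, 0.454 and 0.222 CPM) in damaged wild type. The groups did not overlap, and the log2 fold change was 2.19 ± 0.34 (SE, n = 3 a genotype, adjusted p = 0.0150). The call was lost when any of 5 damaged libraries was left out, the exception being wild-type library 1, with adjusted p from 0.0538 to 0.0855. It was also lost without both libraries numbered 3 (adjusted p = 0.146) and with the 6 damaged libraries fitted alone and no block (adjusted p = 0.336). In intact thallus the gene averaged 1.66 ± 0.177 CPM in Mpglr-9 and 0.647 ± 0.0930 CPM in wild type (SD, n = 3 each, adjusted p = 0.909), and in systemic lobes 1.37 ± 0.419 CPM in Mpglr-9 and 0.968 ± 0.282 CPM in wild type (adjusted p = 0.948), where the groups overlapped.

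Close by, Mp4g19400 had 45, 67 and 46 counts in damaged Mpglr-9, against 0, 6 and 1 counts in damaged wild type. The sums of 158 and 7 counts gave a ratio of 21.9 per effective library size, with an exact 95% interval of 10.4 to 55.4 that covers counting error only. It missed the threshold without the block (log2 fold change 4.42 ± 0.78, SE, n = 3 a genotype, adjusted p = 0.0799) and passed with it (adjusted p = 0.0437). In systemic lobes it was called without the block (adjusted p = 0.0252), at 2.24 ± 0.1498 CPM in Mpglr-9 and 0.0530 ± 0.0469 CPM in wild type (SD, n = 3 each). In intact thallus it was not called (adjusted p = 0.966 without the block), at 2.08 ± 0.567 CPM in Mpglr-9 and 0.348 ± 0.302 CPM in wild type. Mp4g19410 and Mp4g19420, listed between the pair, had at most 2 counts in any damaged library.

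**Figure D2:**
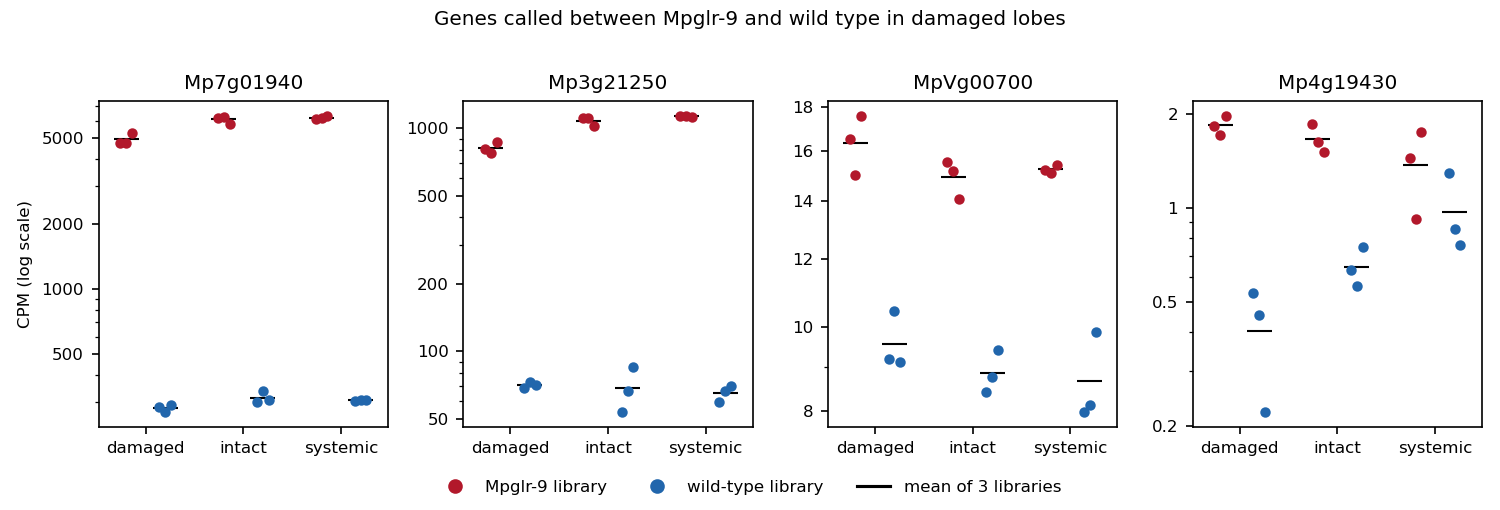
CPM on a log axis of the 4 called genes in each library of damaged, intact and systemic tissue, Mpglr-9 in red on the left and wild type in blue on the right of each pair, with black bars for the mean of 3 libraries. Mp7g01940, Mp3g21250 and MpVg00700 are apart in all 3 tissues, while Mp4g19430 overlaps between the genotypes in systemic lobes.

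With the replicate number as a block within each condition the calls were 32 genes higher (0.238%) and 17 lower (0.126%) in damaged Mpglr-9, or 0.364% in all, and all 4 genes above were among them. This count leaned on the library pairs. Without the pair numbered 1 there were 12 higher and 4 lower genes, without pair 2 there were 7 and 1, and without pair 3 there were 31 and 23. Of the 49 genes 12, 7 and 28 were called again in these fits, and all 49 kept their direction. DESeq2 with the same block called 31 of the 49. A block on the 6 damaged libraries alone called 28 higher and 19 lower genes, of which 26 were among the 49, or 55.3% of its own calls and 53.1% of the 49. Most of the differences were small, since 22 of the 32 and 15 of the 17 genes had an absolute log2 fold change under 0.5. All mutant libraries lay above all wild-type libraries in 21 of the 32 genes, and below them in 11 of the 17, against 4.66% above and 3.48% below over all tested genes. The same libraries chose these genes, so nothing is read from that count.

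Among the higher genes, 9 of the 32 have a symbol. MpPKS/CHS17, a member of the chalcone synthase family that builds polyketides such as flavonoid precursors, had 74.2, 61.5 and 53.8 CPM in damaged Mpglr-9, against 42.7, 27.2 and 23.8 CPM in damaged wild type. Its difference with the block was 1.05 ± 0.13 on the log2 scale (SE, n = 3 a genotype, adjusted p = 0.00693, against 0.180 without the block). MpUGT31, which belongs to the glycosyltransferases that attach sugars to small molecules, had 108, 114 and 115 CPM in damaged Mpglr-9, against 80.2, 74.8 and 84.7 CPM in damaged wild type. For both genes the lowest mutant library stood above the highest wild-type library.

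MpUGT31 had the smallest p with the block among the genes with a symbol (log2 fold change 0.49 ± 0.06, SE, n = 3 a genotype, adjusted p = 0.000929, against 0.0799 without the block). The cytochrome P450 gene MpCYP816A1 stood at 39.7, 39.6 and 39.3 CPM in damaged Mpglr-9, against 28.9, 26.7 and 33.4 CPM in damaged wild type (0.42 ± 0.08, SE, adjusted p = 0.0221 with the block, against 0.106 without). A second P450 gene, MpCYP813-like2, averaged 32.7 ± 8.09 CPM in damaged Mpglr-9 and 23.95 ± 6.41 CPM in damaged wild type (SD, n = 3 each, adjusted p = 0.0342 with the block, against 0.828 without), and here the groups overlapped. MpFAD8, a fatty acid desaturase gene and the sole called member of the oxylipin lists, had 406, 305 and 217 CPM in damaged Mpglr-9, against 302, 269 and 187 CPM in damaged wild type. Each mutant library of MpFAD8 exceeded the wild-type library of its own number, although the groups overlapped (0.27 ± 0.05, SE, adjusted p = 0.0337 with the block, against 0.883 without).

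Further higher genes with a symbol differed by less. MpNPF21, of the nitrate and peptide transporter family, averaged 970 ± 129 CPM in damaged Mpglr-9 and 840 ± 129 CPM in damaged wild type (SD, n = 3 each). The groups overlapped for MpNPF21 (adjusted p = 0.0444 with the block, against 0.853 without). MpLCY-like2, named after the lycopene cyclases of carotenoid synthesis, averaged 313 ± 21.9 CPM in damaged Mpglr-9 and 269 ± 5.98 CPM in damaged wild type (adjusted p = 0.0430 with the block, against 0.180 without). MpNRP averaged 75.9 ± 0.703 CPM in damaged Mpglr-9 and 61.9 ± 2.96 CPM in damaged wild type (adjusted p = 0.0430 with the block, against 0.246 without). MpPKC2 was higher by 0.43 ± 0.09 in damaged lobes on the log2 scale (SE, adjusted p = 0.0430 with the block, against 0.828 without). Its groups overlapped in damaged lobes, and it stood at -0.63 in intact plants.

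Among the lower genes, 6 of the 17 have a symbol. MpDIR2, of the dirigent family that steers the coupling of phenoxy radicals, had 146, 110 and 66.5 CPM in damaged Mpglr-9, against 208, 161 and 89.0 CPM in damaged wild type. The groups overlapped, but each mutant library lay below its numbered partner, with a difference of -0.50 ± 0.07 on the log2 scale (SE, n = 3 a genotype, adjusted p = 0.00773 with the block, against 0.871 without). MpLTP-like66 and MpLTP-like68, named after lipid transfer proteins, were lower in damaged Mpglr-9 by 0.31 and 0.47 on the log2 scale with the block. Their adjusted p was 0.0221 and 0.0478 with the block, against 0.763 and 0.211 without. MpABCG34, named after the ABC transporters of subfamily G, was lower in damaged Mpglr-9 by 0.36 (adjusted p = 0.00948, against 0.763 without the block). MpDOXC16, a 2-oxoglutarate-dependent oxygenase gene, was lower by 0.48 (adjusted p = 0.00996, against 0.763 without the block). For MpABCG34 and MpDOXC16 the groups overlapped.

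The transcription factor gene MpBHLH19 had 126, 125 and 136 CPM in damaged Mpglr-9, against 156, 151 and 149 CPM in damaged wild type. The difference was -0.24 ± 0.05 on the log2 scale (SE, n = 3 a genotype, adjusted p = 0.0430 with the block, against 0.211 without), and the groups did not overlap. Among genes without a symbol, Mp1g00010 had 8, 9 and 5 counts in damaged Mpglr-9, against 35, 26 and 32 counts in damaged wild type. Its log2 fold change of -2.14 ± 0.41 (SE, adjusted p = 0.0337, against 0.158 without the block) was the largest negative one called with the block. Of the genes with moderate levels, Mp2g00860 was higher in damaged Mpglr-9 by 0.89 ± 0.16 (SE, adjusted p = 0.0342, against 0.558 without the block). Mp3g12080 was lower by 0.61 (adjusted p = 0.0320, against 0.292 without the block). The remaining called genes lay between -0.50 and 0.68 on the log2 scale.

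The same 49 genes were also measured in the intact and systemic libraries, which are not libraries of the damaged comparison. Systemic lobes are from wounded plants, possibly the same ones as the damaged lobes, so they are not an independent sample. In intact thallus 26 of the 32 higher genes had a positive and 14 of the 17 lower genes a negative difference, and the counts were again 26 and 14 in systemic lobes. Over all tested genes 49.4% of the differences were positive in intact and 49.5% in systemic tissue. The sizes were smaller, with a median log2 fold change over the higher genes of 0.41 in damaged, 0.12 in intact and 0.18 in systemic tissue, and over the lower genes of -0.36, -0.13 and -0.11. The damaged lobes chose the genes, so their median there is a description. With the block 4 of the 32 were also called higher in intact plants (0.0892% over all tested genes) and 7 in systemic lobes (0.238%), and 1 of the 17 was called lower in intact plants (0.0372%) and 1 in systemic lobes (0.0892%). In systemic lobes the deviations of same-numbered libraries correlated at 0.0876, 0.0370 and 0.388, not each above the minimum of 0.1. The blocked calls there thus rest on a weaker pairing. Mp5g08580, the gene called lower in both intact and systemic tissue, was lower in Mpglr-9 by 0.30 in damaged, 0.29 in intact and 0.31 in systemic tissue on the log2 scale (adjusted p = 0.0141, 0.0240 and 0.00771). MpUGT31, MpCYP816A1 and MpPKS/CHS17 had log2 fold changes of 0.22, -0.03 and 0.43 in intact plants with the block (adjusted p = 0.282, 0.987 and 0.694). The test of a difference between damaged and intact tissue did not pass for any of the 49 genes, in the fit without the block (adjusted p = 1) or in the fit with it, where the only gene called (0.00743% of those tested), Mp5g21760, was not one of them.

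**Figure D3:**
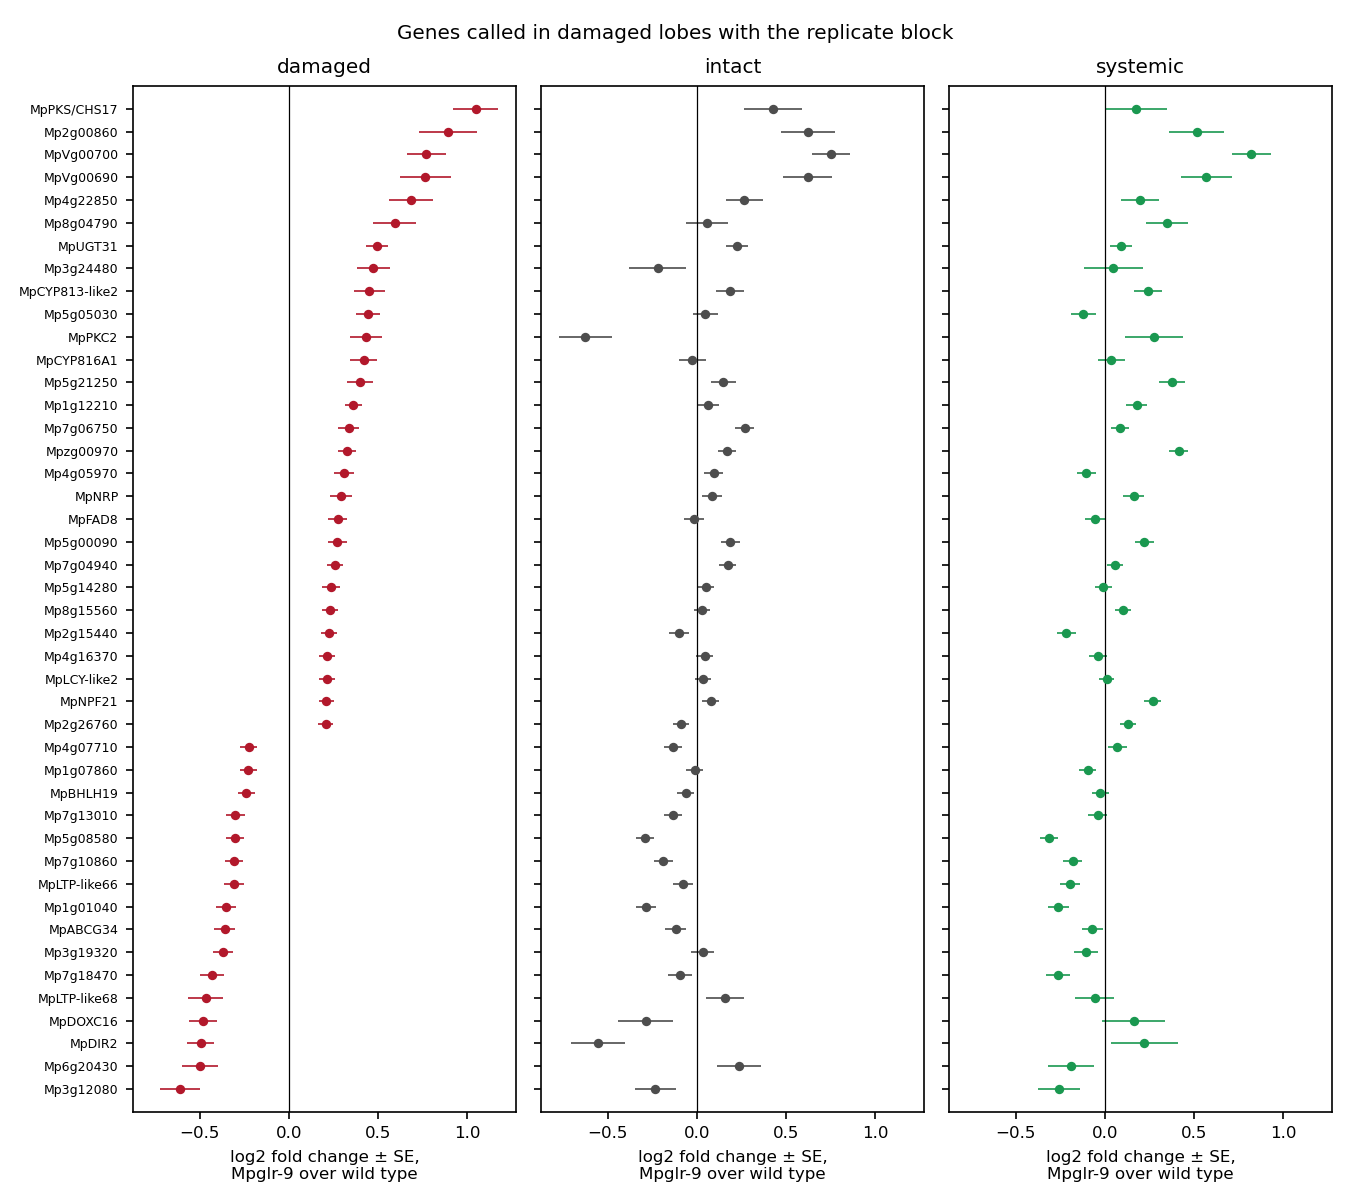
Log2 fold change ± SE of Mpglr-9 over wild type with the replicate block, in damaged lobes (left), intact thallus (middle) and systemic lobes (right), for 44 of the 49 genes called in damaged lobes with the block. The 5 genes beyond 2 on the log2 scale are left out; the values in intact and systemic tissue mostly lie on the same side of 0 and nearer to it.

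Genes picked for the wound response were set side by side in the crushed lobes of both genotypes. In wild type some were higher in damaged than in intact tissue, such as MpLOX2 (means of 1849 and 168 CPM). Others were lower, such as MpRBCS (61.1 and 109 CPM), or nearly level, such as MpNINJA (157 and 140 CPM). Of 32 such genes, picked with earlier results of these data known, 0 were called in edgeR without the block and 0 with the block within each condition. Over all tested genes 0.0297% and 0.364% were called in these fits. With a block on the 6 damaged libraries alone 2 were called, MpDIR5 at 0.42 (adjusted p = 0.0217) and MpBHLH51 at -0.48 (adjusted p = 0.0462) on the log2 scale. That fit called 28 higher and 19 lower genes of 12869 tested. The median log2 fold change over the 32 genes was 0.04, beside 0.00 over all tested genes. As the set mixes genes that rise and fall, this median does not measure the strength of the response. Nor does the picked set stand for all wound-responsive genes. Some of the 49 genes called with the block were higher in damaged than in intact wild type, such as MpDIR2 (means of 153 and 3.94 CPM). Others of the 49 were lower, such as Mp7g06750 (46.8 and 144 CPM). For 24 of the 32 genes the 95% interval lay within 1 of 0, and for 12 within 0.5. In 25 of the 32 genes the same library number had the highest CPM in both genotypes, number 1 in 22 of them. Over all tested genes the same number was highest in 45.5%, and number 1 in 15.2%. For this count alone, CPM were not scaled between libraries.

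The lipoxygenase MpLOX2, an enzyme of the first step of oxylipin synthesis, had 2034, 1704 and 1748 CPM in damaged Mpglr-9, against 2105, 1818 and 1623 CPM in damaged wild type. The libraries overlapped, and the log2 difference was -0.02 with a 95% interval of -0.23 to 0.20. MpLOX4 had 730, 470 and 412 CPM in damaged Mpglr-9, against 629, 506 and 329 CPM in damaged wild type. For MpLOX4 the interval ran from -0.41 to 0.69, and library 1 was the highest in both genotypes.

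MpLOX6 had 104, 60.7 and 50.05 CPM in damaged Mpglr-9, against 27.1, 33.7 and 31.9 CPM in damaged wild type, with no overlap. The log2 fold change of 1.21 ± 0.33 (SE, n = 3 a genotype) had an unadjusted p of 0.00300 and missed the threshold over all genes (adjusted p = 0.588, and adjusted p = 0.209 with the block). MpLOX8, a close neighbour by locus number, had 400, 239.9 and 199 CPM in damaged Mpglr-9, against 143, 154 and 125 CPM in damaged wild type, or 0.99 ± 0.29 in log2 fold change (SE, adjusted p = 0.695). Reads shared between such related genes could not be separated. Of 15 tested lipoxygenase genes these 2 had all mutant libraries above all wild-type libraries, beside 4.66% of all tested genes.

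Further along the pathway, the allene oxide synthase genes MpCYP74N1 and MpCYP74N2 had log2 fold changes of 0.05 ± 0.06 and 0.04 ± 0.12 (SE, n = 3 a genotype, adjusted p = 0.974 and 0.995). The repressor gene MpJAZ had 208, 192 and 162 CPM in damaged Mpglr-9, against 210.4, 179 and 157 CPM in damaged wild type. The receptor gene MpCOI1 had 87.7, 94.1 and 89.3 CPM in damaged Mpglr-9, against 76.7, 86.7 and 88.4 CPM in damaged wild type. For MpJAZ the 95% interval of the log2 difference ran from -0.16 to 0.25 and for MpCOI1 from -0.01 to 0.22. MpNINJA, the adaptor of the repressor complex, had an interval of -0.09 to 0.13.

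**Figure D4:**
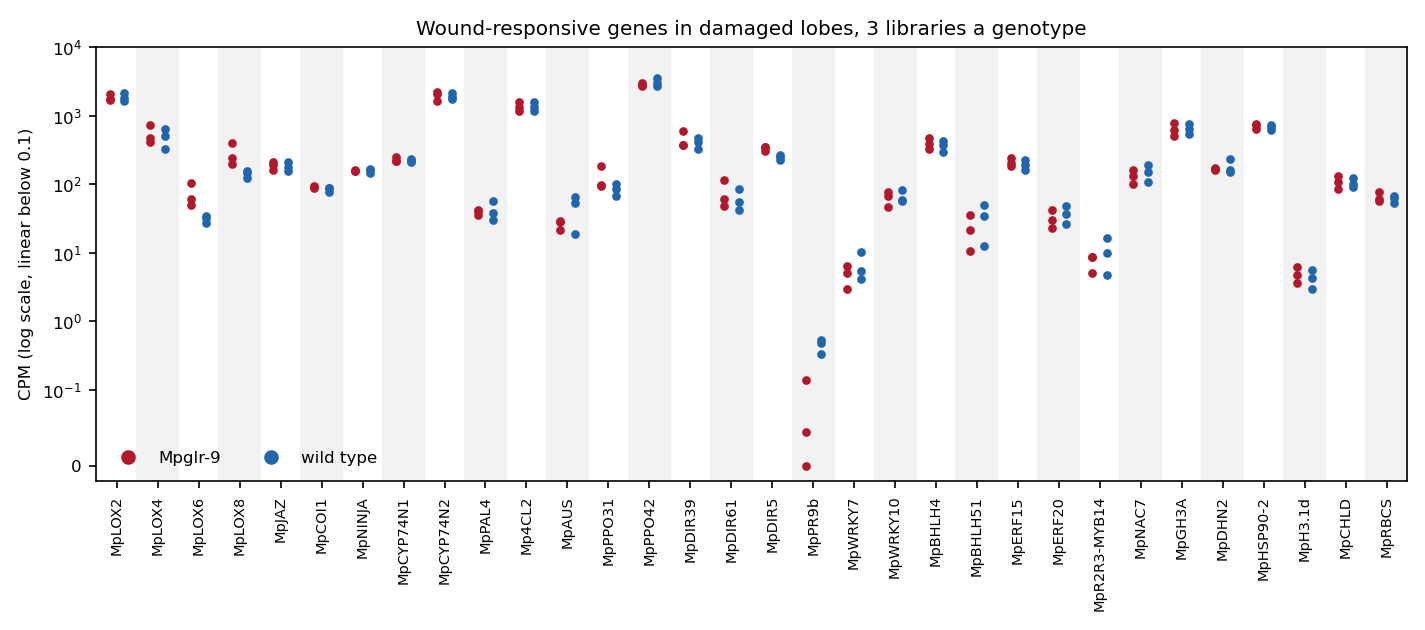
CPM in each of the 6 damaged libraries for 32 genes picked for the wound response, on a log axis that is linear below 0.1. Mpglr-9 is in red on the left and wild type in blue on the right of each gene. The libraries of the genotypes overlap for all but 4 genes, MpLOX6, MpLOX8 and MpDIR5 with the mutant above (3 of 32, beside 4.66% of all tested genes) and MpPR9b with the mutant below (1 of 32, beside 3.48%).

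Among phenolic genes, the 4-coumarate:CoA ligase gene Mp4CL2 had 1572, 1336 and 1153 CPM in damaged Mpglr-9, against 1577, 1354 and 1158 CPM in damaged wild type, and a 95% interval of the log2 difference of -0.23 to 0.21. MpAUS, the gene of the auronidin pigment enzyme, had 28.5, 28.4 and 21.4 CPM in damaged Mpglr-9, against 65.7, 53.3 and 18.5 CPM in damaged wild type. The wild-type library numbered 3 lay below all mutant libraries, and the log2 fold change of -0.81 ± 0.40 (SE, n = 3 a genotype) did not pass (adjusted p = 0.853). The polyphenol oxidase gene MpPPO31 had 182, 97.9 and 93.5 CPM in damaged Mpglr-9, against 100.4, 84.4 and 66.6 CPM in damaged wild type (log2 fold change 0.57 ± 0.28, SE, adjusted p = 0.853). MpPPO42 had an interval of -0.58 to 0.30.

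MpDIR5, a dirigent gene, had 350, 303 and 343 CPM in damaged Mpglr-9, against 222, 251 and 268 CPM in damaged wild type. The groups did not overlap, and the log2 fold change of 0.43 ± 0.15 (SE, n = 3 a genotype) missed the threshold (unadjusted p = 0.0151, adjusted p = 0.825), while a block on the 6 damaged libraries alone gave an adjusted p of 0.0217. MpPR9b, of the pathogenesis-related proteins, had 3, 1 and 0 counts in damaged Mpglr-9, against 8, 8 and 12 counts in damaged wild type, mostly near the limit of 3 counts in the mutant (adjusted p = 0.763). The factors MpWRKY10, MpBHLH4 and MpERF15 had log2 fold changes of -0.07 ± 0.16, 0.12 ± 0.26 and 0.12 ± 0.22 (SE, n = 3 a genotype, adjusted p from 0.978 to 0.990). The histone gene MpH3.1d stood at 3.57, 4.76 and 6.07 CPM in damaged Mpglr-9, against 2.90, 4.21 and 5.64 CPM in damaged wild type, with library 3 highest in both.

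The gene families followed the same pattern of few called members. Of 33 lists with at least 3 tested genes, 1 held a gene called without the block, the V chromosome, and 8 held a gene called with it. The list medians lay between -0.15 and 0.11 on the log2 scale, beside 0.00 for all tested genes. The oxylipin lists had 0 of 15 lipoxygenases and 0 of 3 signalling genes called with or without the block, and of 19 genes of later steps and desaturases 1 was higher with it. Of 49 genes of the chalcone synthase family and flavonoids 1 was higher with the block, of 43 glycosyltransferase and O-methyltransferase genes 1 was higher, and of 86 cytochrome P450 genes 2 were higher. Of 47 dirigent genes, 37 bHLH genes and 29 genes of 2-oxoglutarate-dependent oxygenases 1 each was lower with the block. These shares stand beside 0.238% higher and 0.126% lower over all tested genes.

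No member was called, with or without the block, among 16 genes of phenylpropanoid entry, 36 polyphenol oxidases, 102 class III peroxidases, 12 WRKY, 22 AP2/ERF, 8 NAC and 44 MYB factors, nor among 37 genes of ion transport, 6 of calcium signalling, 83 receptor-like kinases and 21 NBS-LRR proteins. Over all tested genes 0.0297% were called without the block and 0.364% with it, so a count of 0 sets no list of these sizes apart. The lowest median, -0.15, belonged to the 74 genes of abscisic acid and desiccation, of which 21 had a positive difference, and their summed level ran from 2911 to 3140.3 CPM in damaged Mpglr-9 and from 3042 to 3449 CPM in damaged wild type. The highest, 0.11, belonged to 3 genes of oil body cells, the liverwort cells that store terpenoids in a single large organelle, with summed levels of 31.1 to 33.5 CPM in damaged Mpglr-9 and 30.0 to 31.4 CPM in damaged wild type. Histone and cell-cycle genes, which mark dividing cells, summed to between 2346 and 2620.1 CPM in damaged Mpglr-9 and between 2353 and 2679.9 CPM in damaged wild type, and 0 of 50 were called. In such bulk tissue fewer cells of a type and less RNA per cell cannot be told apart. No identifier of the U chromosome is in the table, and a rhizoid list had no named member.

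**Figure D5:**
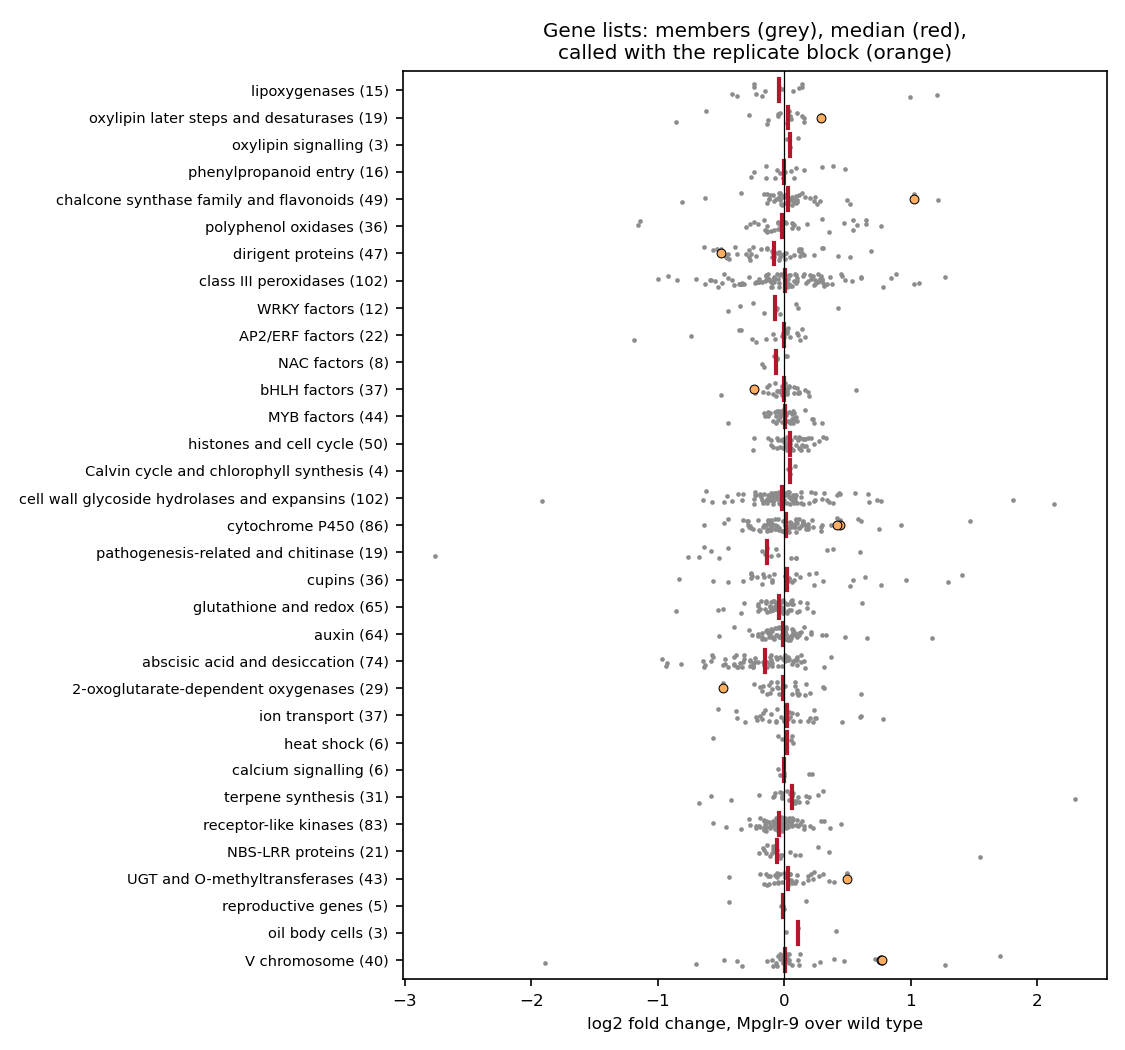
Log2 fold change of Mpglr-9 over wild type in damaged lobes (horizontal) for the members of each gene list (vertical, number of tested members in parentheses), with the list median in red and members called with the replicate block in orange. The medians lie between -0.15 and 0.11, and called members are single genes.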

How the data were processed

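The authors deposited 1 table of whole-number read counts per gene for 18 libraries and 19355 genes; the submitters' processing notes name HISAT2 and HTSeq, with versions and genome build not given in the sources used here. Poly(A) RNA was sequenced as paired ends, per the labels' protocols; whether strand was used in counting is not stated, so that reads of overlapping, antisense or near-identical genes could not be separated. From the deposited counts, genes were filtered with filterByExpr by group (13450 left), scaled by TMM and fitted with edgeR 4.0.16 (quasi-likelihood, robust, R 4.3.3), with 6 group means over all 18 libraries; contrasts were adjusted by Benjamini-Hochberg over all tested genes and called at an adjusted p under 0.05. DESeq2 1.42.0 and limma-voom (limma 3.58.1), other scaling, no filter, fewer libraries and replicate blocks were alternatives. The p-values measure the spread between libraries, each a pool of plants that the series' design text calls an independent biological replicate.

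Same-numbered mutant and wild-type libraries deviated together in damaged lobes (0.254, 0.117 and 0.391) and intact plants (0.314, 0.487 and 0.680), each above the minimum of 0.1, but not in systemic lobes (0.0876, 0.0370 and 0.388). In intact plants libraries of different numbers correlated as well, mutant 1 with wild type 2 at 0.374 and mutant 2 with wild type 1 at 0.322. The pairing comes from these correlations, not from the labels, and the blocked values are therefore given where they change a call. Within each damaged group, no 2 libraries were alike within sampling noise (chi-square per degree of freedom from 10.7 to 26.5).

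Symbols came from RefSeq (MpTak2_v7.1) by locus number, for 17384 of the identifiers (89.8%), of which 3091 have a symbol. Named genes were those called, genes next in order of p, 32 wound genes, and up to 10 genes called only with the block by size, plus called members of each list; other genes called with the block, the neighbours and the V chromosome genes outside this rule were chosen after their values were seen. The members and lists were chosen with earlier results of these data known.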

Additional observations from a re-analysis of the deposited data

Results flagged for a closer look

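Mp5g21760, a gene without a symbol, was the 1 gene for which the difference between the genotypes differed between damaged and intact tissue in edgeR with all 18 libraries and the replicate block within each condition; without the block 0 genes passed, or 1 gene when wild-type intact library 1 was left out. Its difference in damaged lobes minus that in intact plants was 2.30 ± 0.25 on the log2 scale (SE, edgeR adjusted p = 0.0343), against 2.35 ± 0.81 without the block (adjusted p = 1). In damaged lobes it had 1349.8, 880.02 and 790.4 CPM in Mpglr-9, against 1043, 886 and 649.7 CPM in wild type, and the groups overlapped. In intact thallus it had 0.249, 1.28 and 2.16 CPM in Mpglr-9, against 1.61, 4.07 and 9.94 CPM in wild type, where the groups overlapped too, and the levels were low.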

How the results depend on the processing

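Counts of genes called higher and lower in Mpglr-9 were 4 and 0 in damaged lobes, 3 and 0 in intact plants and 7 and 0 in systemic lobes. DESeq2 gave 18 and 10, 5 and 2, and 22 and 9 in these tissues. Fitting the libraries of a contrast alone gave 2 higher genes in damaged lobes and 24 and 4 in systemic lobes. With the replicate block within each condition the counts were 32 and 17 in damaged lobes, 12 and 5 in intact plants and 32 and 12 in systemic lobes, and 1 gene was higher in damaged minus intact tissue. A replicate block common to all groups gave 8 and 1 in damaged lobes and 14 and 2 in systemic lobes, and a replicate block on the 6 damaged libraries alone gave 28 and 19. Starting from the block within condition, DESeq2 called 40 higher and 27 lower genes in damaged lobes, and limma-voom 44 higher and 38 lower. Leaving out 1 pair of libraries from that block fit in edgeR gave 7 to 31 higher and 1 to 23 lower genes. The causes were not tested.

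Leaving out 1 library at a time gave 3 to 5 higher and 0 to 6 lower genes in damaged lobes, with 6 lower without wild-type damaged library 3 and 1 without Mpglr-9 damaged library 3. It gave 3 to 5 higher and 0 to 1 lower in systemic lobes, and 0 to 1 higher in damaged minus intact tissue, 1 of them without wild-type intact library 1. Wound genes that passed no test turned sign without 1 damaged library. Over all 16 alternatives for damaged lobes, other tests, scaling and blocks among them, their log2 fold changes ranged as follows: MpPAL4 -0.26 to 0.22, MpLOX2 -0.10 to 0.087, Mp4CL2 -0.13 to 0.11, MpWRKY7 -0.72 to 0.021, MpWRKY10 -0.24 to 0.12, MpERF20 -0.48 to 0.0052, MpR2R3-MYB14 -0.79 to 0.045, MpNAC7 -0.36 to 0.032, MpGH3A -0.18 to 0.13, MpDHN2 -0.23 to 0.10, MpH3.1d -0.044 to 0.42, MpCHLD -0.13 to 0.19, MpRBCS -0.056 to 0.17, MpHSP90-2 -0.0063 to 0.13, MpLOX4 -0.15 to 0.36, MpJAZ -0.053 to 0.16, MpNINJA -0.043 to 0.069, MpCYP74N2 -0.051 to 0.15, MpBHLH4 -0.023 to 0.25, MpCYP74N1 -0.0088 to 0.095, MpDIR39 -0.12 to 0.29, MpDIR61 -0.15 to 0.62, MpERF15 -0.0050 to 0.25. MpPAL4 stood at 0.0036 with limma-voom. Without both damaged libraries numbered 3, MpNINJA stood at -0.040, MpWRKY10 at 0.020 and MpGH3A at 0.024. Depth limits genes near 3 counts, such as MpPR9b and Mp4g19400.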
